A study of Homo sapiens with 6 samples.

Results

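The regions described here are the subtelomeric open chromatin regions of the human embryonic stem cell line WA09: regions whose midpoint lay within 2 Mb of either end of an autosome other than chromosome 19. The long-arm end of a chromosome was taken as the largest end position in the deposited table. Position alone chose 4082 of the 118556 regions, on 21 chromosomes, and they lay at 37 chromosome ends, 16 on short arms and 21 on long arms. The short arms of chromosomes 13, 14, 15, 21 and 22 held no such region. They were set against 8464 regions lying 5 to 10 Mb from the same 37 ends, called inner regions below.

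Cells were sorted by flow cytometry and profiled by FAST-ATAC, an assay that reads open chromatin from where the Tn5 enzyme inserts sequencing adapters. The high population carried the surface markers GCTM-2, CD9 and EPCAM at high levels (GCTM-2highCD9highEPCAMhigh), and the mid population carried GCTM-2 and CD9 at intermediate levels (GCTM-2midCD9mid). The sample titles name the latter low. Both came from the same line, so the results describe 1 cell line. The sample titles name no treatment, and the study's methods describe blebbistatin treatment of cultures before dissociation to single cells. Each population had 3 replicates, which the study's methods call biological. The table pairs no gene names with regions, so the cell type label was not checked against marker genes.

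Subtelomeres in the strict sense are the stretches of chromosome between the telomeric repeats and the chromosome-specific sequence of the arm. Here the word is used by position only, for regions within 2 Mb of an end, which takes in chromosome-specific sequence too. Their outermost parts are patchworks of segments duplicated between chromosomes, and many human chromosome ends are rich in GC and in genes just inside these patchworks. Some, in contrast, border gene-poor chromatin. Telomeres and the chromatin beside them matter for stem cells because self-renewal needs the repeats to be maintained.

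Total counts ran from 15486251 to 29025274 per library. Replicates of a population differed from each other by more than sampling noise, with chi-square values per degree of freedom between 3.18 and 7.49. Region counts are over bulk cells, so more cells with an open region and a more open region in each cell cannot be told apart. Reads of duplicated subtelomeric segments can be placed on a copy other than their source, which touches the outermost regions most. Positions are in hg19, and no sequence or gene is given for single regions because the reference used here is another build.

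Open regions were wider near the ends and, over the outer 2 Mb as a whole, denser. The outer 2 Mb held 55.2 regions per Mb and the 5 to 10 Mb windows 45.8. Density did not rise steadily toward the end, at 52.4 per Mb from 3 to 4 Mb, 60.8 from 0.5 to 1 Mb and 48.1 in the outermost 0.5 Mb. The median width was 1122.5 bp (quartiles 758.25 and 1896) in subtelomeric regions, 901 bp (676 and 1376.25) in inner regions and 879 bp over the whole table. Of the subtelomeric regions, 22.7% were 2000 bp or wider, against 12.7% of the inner regions. At 30 of the 37 ends the subtelomeric median width exceeded the inner one. Subtelomeric regions also held more reads, a median of 801 over the 6 libraries against 546 for all regions.

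Regions within 2 Mb of the ends were called higher in the mid population more often than regions of the whole table. In edgeR's quasi-likelihood test with the replicate number as a block (Benjamini-Hochberg adjusted p under 0.01 over all 118556 regions), 374 subtelomeric regions (9.16%) were higher in the mid population, where the share of all regions was 3.77%. Only 11 (0.269%) were higher in the high population, where the share of all regions was 2.32%. Of the inner regions, 369 (4.36%) were higher in the mid and 96 (1.13%) in the high population. Subtelomeric regions were 3.44% of the table and held 8.36% of its mid calls and 0.4% of its high calls.

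Each of the 374 mid and 11 high calls had the same sign in the pairs of replicates 1, 2 and 3, as had 367 of the 369 inner mid calls. Of the 374, the 3 high libraries all lay below the 3 mid libraries in 369, and of the 369 inner mid calls in 360. The calls were made on these same libraries, so such agreement is no further evidence for them. It was not counted over the mid calls of the whole table. The changes were small: the called mid regions had a median log2 fold change (high over mid) of -0.62, and 12 exceeded 2-fold. Inner mid calls were alike, with a median of -0.64 and 23 of the 369 above 2-fold. Of these 374 regions, DESeq2 called 315 and gave no adjusted p-value for 16. With no replicate block, edgeR called 84 mid regions (2.06%, against 1.11% of all regions) and 0 high ones (against 0.236% of all regions). DESeq2 with the block called 2 high ones (0.049%, against 0.835% of all regions). At an unadjusted p under 0.05 without the block, 79 subtelomeric regions (1.94%) were higher in the high population, against 10.6% of all regions. Replicate 2 mattered most, over the whole table as well. Without its pair, 26 mid regions (0.637%, against 0.369% of all regions) and 2 high ones (0.049%, against 0.313%) were called. Without mid replicate 2 alone, 26 (0.637%, against 0.364%) and 2 (0.049%, against 0.313%) were called. Without high replicate 2 alone, 56 (1.37%, against 0.708%) and 2 (0.049%, against 0.364%) were called.

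The shift extended beyond called regions. The median log2 fold change was -0.22 (quartiles -0.42 and 0.00) over subtelomeric regions, -0.06 (-0.29 and 0.18) over inner regions and 0.03 over all regions. Accessibility was lower in the high population at 74.8% of the subtelomeric regions, 56.7% of the inner regions and 46.5% of all regions, whether or not the difference passed the test. In the single pairs the subtelomeric median was -0.34, -0.23 and -0.10 for replicates 1, 2 and 3, and the inner median -0.12, -0.07 and -0.01. The gap between both medians was therefore negative in each pair (-0.22, -0.16 and -0.09). Scaling by total counts alone moved the median of all regions to 0.12, the inner median to 0.03 and the subtelomeric one to -0.13, so the inner median changed sign and the subtelomeric one did not.

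The same difference appeared in the reads of each library. Subtelomeric regions held 3.69%, 4.14% and 4.23% of the counts in high replicates 1, 2 and 3, and 4.56%, 4.91% and 4.58% in mid replicates 1, 2 and 3. Every high library lay below every mid library, at 4.02% ± 0.287 against 4.69% ± 0.196 (SD, n = 3 each; two-sided exact permutation p = 0.1, the lowest value possible with 3 libraries a side). The 95% Wilson interval of a single share was at most 0.0198 percentage points wide, which covers counting error only and leaves out the variation between replicates.

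A ratio of subtelomeric to inner reads within a library does not depend on the scaling between libraries. The log2 ratio was -0.85, -0.75 and -0.74 in high replicates 1, 2 and 3, and -0.67, -0.58 and -0.66 in mid replicates 1, 2 and 3. High and mid libraries were again separate, with a mean difference of -0.142 on the log2 scale (two-sided exact permutation p = 0.1). The pairs differed by -0.18, -0.16 and -0.08. High replicate 1 had the lowest ratio, and the replicate 3 pair the smallest difference.

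**Figure D1:**
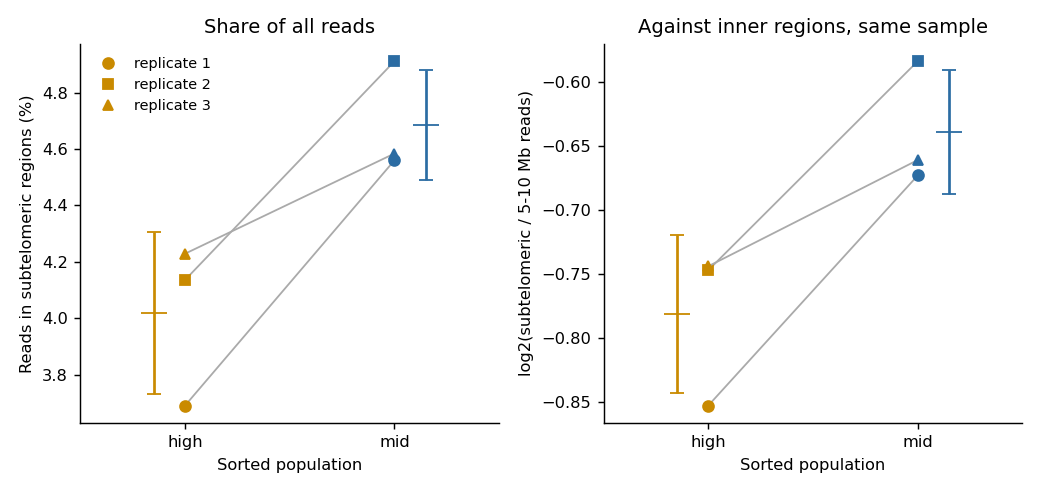
Reads in subtelomeric regions as a percentage of each library's counts (left) and as a log2 ratio to the reads in inner regions (right), with 1 point per library, grey lines joining same-numbered replicates, and bars for mean and SD (n = 3). In both panels every high library lies below every mid library.

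Wide regions were called most often, and the subtelomeric excess was present in each width class. Of regions of 2000 bp or more, 30.1% of the subtelomeric and 23.9% of the inner ones were higher in the mid population, against 20.7% of all regions of that width. From 1000 to under 2000 bp the shares were 5.19%, 2.99% and 3.37%, and below 1000 bp they were 1.26%, 0.779% and 0.570%. Median log2 fold changes of subtelomeric, inner and all regions were -0.38, -0.28 and -0.22 for the widest class. They were -0.21, -0.07 and 0.01 for the middle class and -0.11, 0.00 and 0.10 for the narrowest. In the widest class the median depth was 4.58 log2 CPM (TMM-normalised counts scaled to a common library size) in subtelomeric and 4.74 in inner regions.

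Within a library, the log2 ratio of subtelomeric to inner reads did not overlap between populations below 1000 bp (high less mid -0.113) or from 1000 to under 2000 bp (-0.139), each with an exact permutation p of 0.1. For regions of 2000 bp or more it overlapped: the ratios were -0.51, -0.40 and -0.40 in the high libraries and -0.41, -0.27 and -0.35 in the mid libraries (difference -0.0935, exact permutation p = 0.3). In this class the difference lay in the same direction in all 3 pairs (-0.0978, -0.134 and -0.049). Offsets fitted by loess on region width left 179 mid calls among subtelomeric regions (4.39%, against 2.39% of all regions) and 212 among inner ones.

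The difference between populations lessened from 1.5 to 5 Mb and had no step at 2 Mb. The median log2 fold change was -0.17 in the outermost 0.5 Mb, -0.25 at 1 to 1.5 Mb, -0.22 just inside the boundary (1.5 to 2 Mb) and -0.19 just outside it (2 to 2.5 Mb). It was -0.12 at 3 to 4 Mb and -0.03 at 9 to 10 Mb. The share of regions higher in the mid population was 8.77% in the outermost 0.5 Mb, 9.08% at 1.5 to 2 Mb, 7.97% at 2 to 2.5 Mb and 5.06% at 3 to 4 Mb. Beyond 5 Mb it followed no order, at 3.2%, 4.23%, 5.62%, 4.59% and 4.13% in successive bins of 1 Mb. The median width was 1193 bp at 1 to 1.5 Mb and 864 bp at 5 to 6 Mb, and between 884.5 and 929 bp in the bins beyond. The part of width in the gradient was not tested. Taking the outer 1 Mb or the outer 3 Mb as subtelomeric gave 9.14% and 8.52% higher in the mid population.

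**Figure D2:**
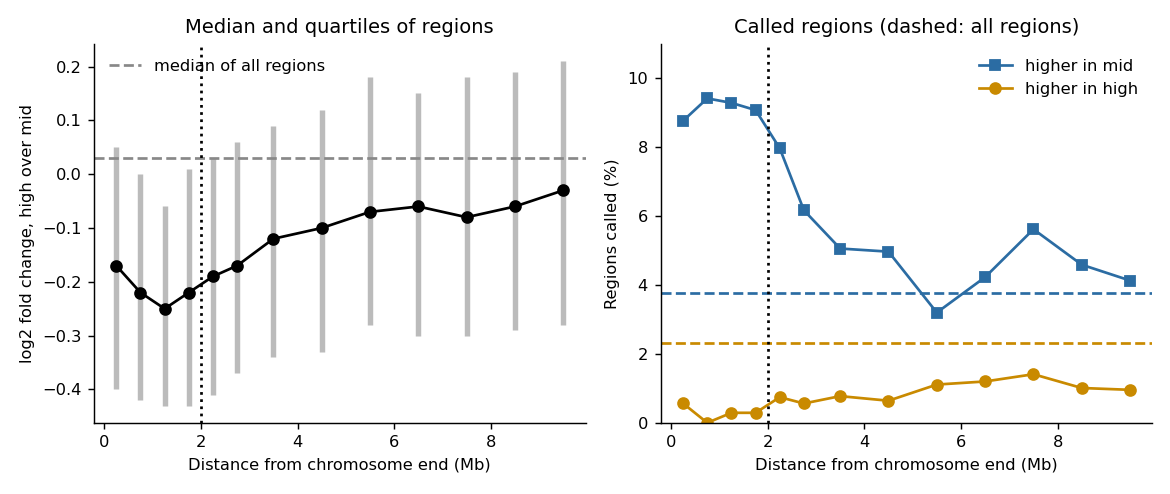
Median and quartiles of the log2 fold change, high over mid (left), and the percentage of regions called in each direction (right), by distance of the region from its chromosome end in Mb, over 37 ends; dashed lines give the values of all regions and the dotted line the 2 Mb boundary. The median is lowest at 1 to 1.5 Mb (-0.25) and reaches -0.03 at 9 to 10 Mb.

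The chromosome ends differed widely among themselves. Median log2 fold changes of single ends ran from -0.44 at 22q to 0.39 at 3p and were negative at 33 of the 37. At 33 ends the subtelomeric median lay below the inner median of the same end. In 25 ends the median was negative in each of the 3 pairs. The ends with the most regions higher in the mid population were 16p (36 of 155), 20q (34 of 152), 9q (29 of 141), 17q (28 of 139), 22q and 8q (25 of 111 and 25 of 131) and 1p (24 of 102). These shares ran from 19.1% at 8q to 23.5% at 1p, against 3.77% of all regions. In the inner windows of the same ends the shares were 13.7% at 22q, 12.9% at 20q, 10.6% at 9q, 9.43% at 17q and 9.39% at 1p. At 16p and 8q the inner shares were 3.37% and 0.752%.

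A fit of the log2 ratio of subtelomeric to inner reads per end, in limma with the replicate block, asked at which ends the outer reads moved against the inner ones. At a Benjamini-Hochberg adjusted p under 0.05 over 37 ends, the ratio was lower in the high population at 10 ends (27.0%) and higher at 1 (2.7%), and it was negative, tested or not, at 31. At 8q, the end with the largest difference, the ratios were 1.402, 1.619 and 1.667 in high replicates 1, 2 and 3 and 2.198, 2.07 and 1.967 in mid replicates 1, 2 and 3, a difference of -0.52 (standard error 0.11, adjusted p = 0.0405). Among the ends that passed, next came 20p (-0.44), 11p (-0.43), 18q (-0.41), 7p (-0.31), 9p (-0.29), 16p (-0.20) and 6p (-0.19), with adjusted p-values from 0.0359 to 0.0475. At each of these 8 ends every high library lay below every mid library. The differences at 3q (-0.40) and 13q (-0.395) exceeded that at 7p but did not pass (adjusted p = 0.0535 and 0.0893, limma). Leaving out the replicate 1 pair or the replicate 2 pair left 0 ends called, with 15 and 4 at an unadjusted p under 0.05.

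The same ratio covered different levels in its outer and inner windows. At 8q, 11p, 7p and 20p the subtelomeric median was negative (-0.34, -0.35, -0.25 and -0.24) and the inner median positive (0.11, 0.10, 0.09 and 0.18). At 18q the subtelomeric median was near 0 (-0.02) beside an inner median of 0.34. At 20q and 22q both windows were lower in the high population (-0.43 and -0.32 at 20q, -0.44 and -0.33 at 22q), so the ratio differed little (-0.03 and -0.07). The short arm of chromosome 17, named after its values were seen, went the other way: its inner regions had a lower median (-0.41) than its subtelomeric ones (-0.35), and its ratio was higher in the high population by 0.17 (adjusted p = 0.0405, limma).

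**Figure D3:**
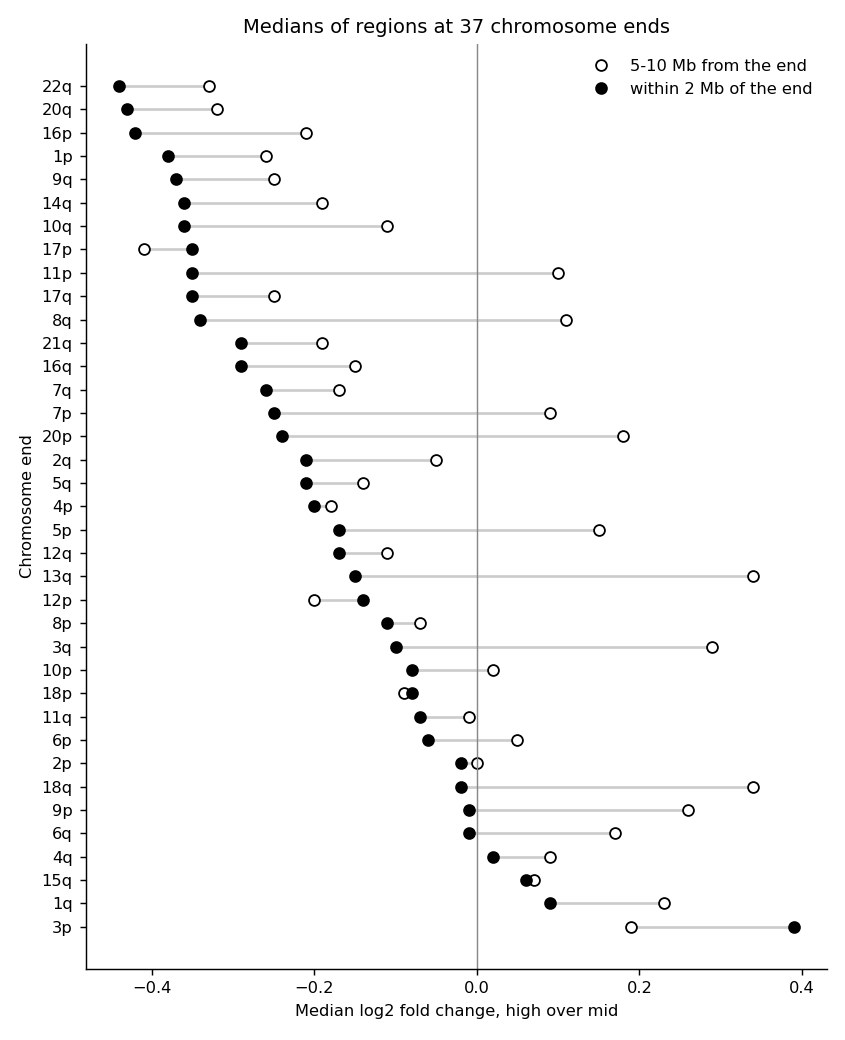
Median log2 fold change (high over mid) for the subtelomeric regions (filled) and the inner regions (open) of each of 37 chromosome ends, sorted by the subtelomeric median. The filled point lies left of the open one at 33 ends, and 3p stands at 0.39.

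The short-arm end of chromosome 3 had the highest subtelomeric median (0.39) and was picked after its values were seen. Of its 67 subtelomeric regions 7.46% were lower in the high population, and its median was 0.68, 0.39 and 0.09 in the pairs of replicates 1, 2 and 3. Only 2 of the 67 were called higher in the high population, where the share of all regions was 2.32%, and 0 in the mid. The inner median of 3p was positive too (0.19). Inner windows of other ends reached like values, with medians of 0.34 at 13q, 0.29 at 3q and 0.34 at 18q. In GRCh38, an assembly other than that of the counts, the outer 2 Mb of 3p had the lowest GC content of the 37 ends (36.8%) and held 2 protein-coding genes, CHL1 and CNTN6, both encoding neural cell adhesion molecules of the immunoglobulin superfamily. Its ratio to the inner regions was higher in the high population by 0.31, which did not pass the test (standard error 0.12, adjusted p = 0.107, limma). The other ends with a positive median were 1q (0.09), 15q (0.06) and 4q (0.02), and of the 62 protein-coding genes in the outer 2 Mb of 1q in GRCh38, 45 have olfactory receptor symbols, a family used in the nose for odour detection.

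Gene numbers varied widely among the ends with the lowest medians. In GRCh38 the outer 2 Mb held 37 protein-coding genes at 22q, 56 at 20q, 92 at 16p, 50 at 1p, 75 at 9q, 30 at 10q and 17 at 14q, the 7 ends with medians from -0.44 to -0.36. Those of 16p included the alpha-globin genes HBA1 and HBA2 and AXIN1, a scaffold of the beta-catenin destruction complex. Those of 20q included RTEL1, a helicase needed for telomere maintenance. Over the 37 ends, protein-coding genes numbered 14.9 per Mb in the outer 2 Mb and 7.5 per Mb in the 5 to 10 Mb windows. Which of these genes a given open region belongs to was not determined, since positions were not carried between builds.

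GC content moved with the result. In GRCh38 the outer 2 Mb had a median GC content of 49.3% over the 37 ends (36.8% at 3p to 57.6% at 16p), against 42.3% for the 5 to 10 Mb windows, and it was higher at 35 ends. Across the 37 ends the median log2 fold change of subtelomeric regions fell with GC content, with Pearson's r of -0.85 and Spearman's rho of -0.84, and across the inner windows r was -0.87 and rho -0.90. Without 3p the first r was -0.84, and without the 2 ends farthest from the median GC it was -0.85. These are descriptions over ends that share the same 6 libraries, and the GC content is of whole windows, not of the open regions.

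Where outer and inner windows shared a band of GC content, their medians overlapped in range. The bands were set after the data were seen. Between 48% and 52% GC, 9 outer windows had a median log2 fold change of -0.26 (range -0.38 to -0.15) and 5 inner windows -0.25 (-0.33 to -0.18). From 44% to 48% it was -0.07 in 9 outer windows (-0.24 to 0.06) and -0.14 in 8 inner ones (-0.41 to -0.05). Below 44% it was -0.03 in 8 outer windows (-0.14 to 0.39) and 0.09 in 24 inner ones (-0.32 to 0.34). Above 52% there were 11 outer windows, with a median of -0.35, and no inner window to compare. Distance from the end and base composition cannot be told apart at that upper range, and the part of GC content in the result was not tested.

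**Figure D4:**
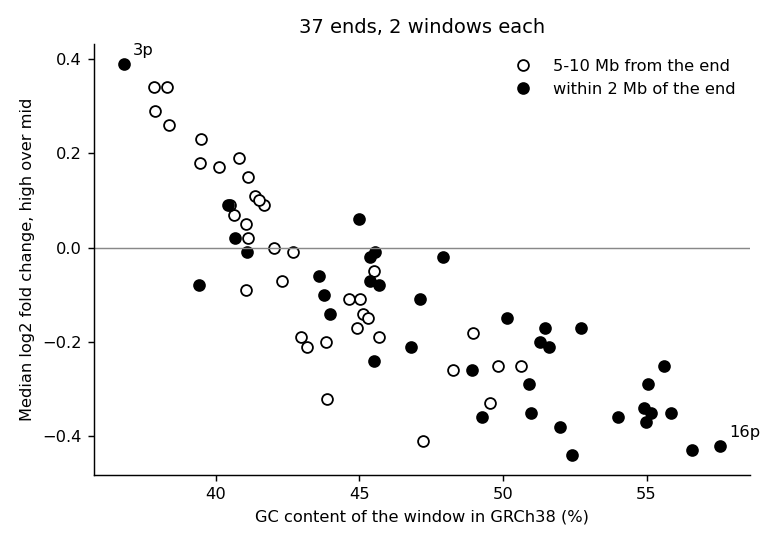
Median log2 fold change (high over mid) against the GC content of the window in GRCh38 (%), for the outer 2 Mb (filled) and the 5 to 10 Mb window (open) of 37 chromosome ends. Filled and open points both fall with GC content, and the filled ones run from 3p (36.8% GC, 0.39) to 16p (57.6%, -0.42).

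Among single regions, the smallest p-values belonged to wide regions with deep coverage. The first was chr22:50351359-50357538, 0.87 Mb from the 22q end and 6180 bp wide. It had 38.5, 37.3 and 34.9 CPM in high replicates 1, 2 and 3 and 82.9, 74.4 and 65.1 in mid replicates 1, 2 and 3. The log2 fold change was -1.0 (standard error 0.12, adjusted p = 6.00e-08, edgeR). No high library came near a mid library.

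On 20q, chr20:61424041-61428297 had 29.8, 28.5 and 26.1 CPM in the high libraries and 59.9, 60.6 and 51.6 in the mid libraries (log2 fold change -1.02, adjusted p = 6.66e-08, edgeR). At the other end of the chromosome, chr20:303164-309024 had 80.9, 76.0 and 74.6 CPM in the high libraries and 144, 146 and 127 in the mid libraries (-0.85, adjusted p = 3.03e-07, edgeR). This region was also among the 3 subtelomeric regions with the most reads (15190 over the 6 libraries).

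On 9q, chr9:140134186-140140879 had 72.9, 69.7 and 71.6 CPM in the high libraries and 150, 130 and 117 in the mid libraries (log2 fold change -0.88). A pair of regions lay on 17q. The first, chr17:80052953-80058091, had 53.0, 57.4 and 52.8 CPM in the high and 110, 107 and 88.5 in the mid libraries (-0.90). The second, chr17:79477515-79483320, had 47.6, 44.6 and 41.2 CPM in the high and 88.8, 89.0 and 72.7 in the mid libraries (-0.90). In all 6 of these regions the high libraries were tightly grouped, and mid replicate 3 was the lowest mid library. All 6 were called under each of the other settings run, DESeq2 and every left-out library included.

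The other regions with the most reads changed less. In chr14:105951290-105959211, the deepest with 18152 reads, the CPM was 99.7, 107 and 117 in the high and 154, 155 and 146 in the mid libraries (log2 fold change -0.49, adjusted p = 0.00132, edgeR). In chr17:1616779-1621565 it was 75.2, 72.5 and 93.3 against 139, 113 and 121 (-0.63, adjusted p = 9.50e-05, edgeR). Neither was called without the replicate 2 pair, with no replicate block or with loess offsets.

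Fold changes toward the mid population were largest in narrow regions with few reads. The largest, chr2:113600-114257, had 8, 9 and 27 reads in high replicates 1, 2 and 3 and 78, 62 and 47 in mid replicates 1, 2 and 3 (log2 fold change -1.80, standard error 0.35, adjusted p = 0.000210, edgeR). It lay 0.11 Mb from the 2p end, and was not called without the replicate 2 pair. Next came chr6:169406852-169407465 (-1.42), chr17:1226572-1227202 (-1.37), chr20:61194608-61195109 (-1.36), chr21:46974373-46975216 (-1.29) and chr20:1861813-1862692 (-1.21). DESeq2 gave none of these 6 an adjusted p-value. In chr6:169406852-169407465, mid replicate 1 stood above the other mid libraries (5.52 CPM against 2.60 and 2.76), and the call was lost without replicate 1. Without the replicate 2 pair, chr17:1226572-1227202, chr20:61194608-61195109 and chr20:1861813-1862692 were not called (adjusted p = 0.0782, 0.237 and 0.0375, edgeR). They also lost their call with no replicate block. The region chr21:46974373-46975216 kept its call in each edgeR fit.

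The 11 regions higher in the high population were narrow to middling in width (580 to 1529 bp) and spread over 9 ends. The smallest p-value was at chr6:1348525-1349469, 1.35 Mb from the 6p end, with 5.99, 5.84 and 7.04 CPM in the high and 1.99, 3.16 and 4.18 in the mid libraries (log2 fold change 1.05, standard error 0.21, adjusted p = 0.000274, edgeR). The largest change was at chr10:135361000-135361579, with 6.39, 3.20 and 2.33 CPM in the high and 0.676, 1.43 and 1.92 in the mid libraries (1.48, adjusted p = 0.000479, edgeR). High replicate 1 and mid replicate 1 made the extremes there, and without the replicate 1 pair the log2 fold change was 0.67 (adjusted p = 0.159, edgeR).

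The remaining named regions of this direction were chr5:1326975-1328164 (log2 fold change 0.88), chr2:1608806-1610334 (0.73), chr8:1844775-1846111 (0.64), chr15:102322062-102322671 (0.91), chr15:102493989-102494901 (0.69) and chr3:138864-139859 (0.73). In each, every high library lay above every mid library. In proportion, the populations came closest at chr8:1844775-1846111, where the high libraries had 11, 15.5 and 19.1 CPM and the mid libraries 8.45, 9.95 and 10.4. Both regions of chromosome 15 lay within 0.2 Mb of the 15q end as taken from the deposited table, the nearer at 0.01 Mb. All 6 lost their call without the replicate 2 pair or with no replicate block. DESeq2 called 2 of the 11 and gave 3 no adjusted p-value.

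**Figure D5:**
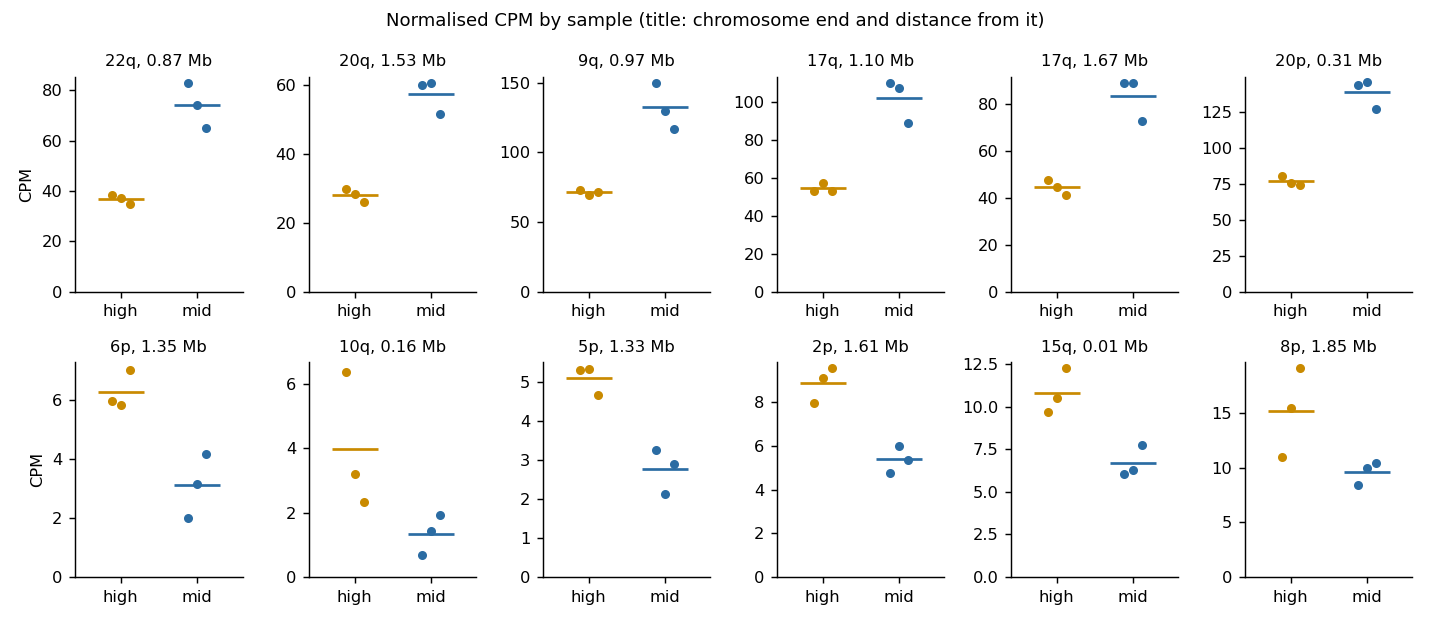
TMM-normalised CPM in each library, by population, for the 6 subtelomeric regions with the smallest p-values among those higher in the mid population (top) and in the high population (bottom); each point is a library, each line a mean of 3, each panel has its own axis from 0. The populations are separate in all 12 panels, and the lowest CPM of the top row (26.1) exceeds the highest of the bottom row (19.1).

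The region nearest to each chromosome end was also examined on its own. These 37 regions, picked by position after the table was seen, lay between 0.2 and 190.1 kb from their ends as taken here and held 159 to 4025 reads each. On long arms that end is itself the largest region end in the table, so distances there do not measure the gap to the telomere. Their median log2 fold change was -0.08, with 21 lower in the high population. By edgeR 0 of the 37 passed the threshold (8 had an unadjusted p under 0.05, and the smallest adjusted p was 0.0166), and DESeq2 called 0. Over all regions 3.77% were called mid and 2.32% high, and 27.8% had an unadjusted p under 0.05, so 37 regions are too few to tell their share of calls from that of the whole table. Their median of 547 reads was close to that of all regions (546).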

How the data were processed

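Per the study's methods and the submitters' processing notes, the authors trimmed reads (trimmomatic), mapped them to hg19 (bwa 0.7.15), dropped PCR duplicates (Picard), adjusted positions for the Tn5 offset and called open regions with MACS. Calling used alignments pooled over replicates, so calls in single replicates are unknown. Regions of high and mid cells were joined into a single set without blacklisted regions, and bedtools counted reads in them. The authors deposited these as raw counts, with no normalisation.

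Starts are given 1 higher than deposited. All 118556 regions entered edgeR 4.0.16 (R 4.3.3; TMM, quasi-likelihood test, replicate block, no filter, adjusted p under 0.01). Standard errors are the fold change over the root of F. Ends were fitted in limma 3.58.1, DESeq2 1.42.0 was an alternative, and exact tests used scipy 1.17.1. Same-numbered libraries deviated together (r 0.19 to 0.30 against -0.26 to 0.06 for other pairs), so the number was kept as a block. The deviations were taken from each population's own mean, so values above 0 for same-numbered libraries draw the other pairs down. Sample titles give the replicate number only and do not say that same-numbered libraries were sorted together. Data were also drawn from means fitted with the replicate block alone, which hold no population difference. With 200 regions changed by a log2 fold of 1, alternately up and down, the edgeR fit recovered 114 with 1 false call. Smaller changes in 1 direction over many regions, as reported above, were not simulated. GC content and genes per end come from GRCh38 and GENCODE, by distance from that assembly's own ends.

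Named regions were, per direction and among called regions with consistent pairs, the 6 with the smallest p and the 6 with the largest fold change, plus the 3 with the most reads; ends were the 8 with the largest difference among those passing. The regions, groups and tests were chosen with earlier results of these data known.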

Additional observations from a re-analysis of the deposited data

How the results depend on the processing

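The median log2 fold change of subtelomeric regions was negative, and lower than that of inner regions by 0.11 to 0.18, in each edgeR fit run. The read share and the read ratio stayed lower in the high population, with no overlap, under each region definition, the limit to narrow regions, the capping of deep regions and each left-out pair. Counts moved more. For subtelomeric regions, against 11 high and 374 mid calls, the fit with no replicate block gave 0 and 84 (with inner regions at 10 and 101, against 96 and 369), and an adjusted p under 0.05 gave 32 and 705 (inner 290 and 700). High calls were 2 with DESeq2 (0.049%, against 0.835% of all regions, inner 25) and 19 with total counts only (0.465%, against 4.19%, inner 187). With upper quartile scaling they were 7 (0.171%, against 2.0%, inner 81). Loess offsets on average log2 CPM gave 222 mid calls (5.44%, against 2.65% of all regions, inner 244), and on region width 179 (4.39%, against 2.39%, inner 212). Leaving out a pair or a library, the subtelomeric counts ran from 2 to 11 high and from 26 to 456 mid, and the inner counts from 21 to 130 and from 32 to 449. Over all regions the shares called in these fits ran from 0.313% to 3.22% high and from 0.364% to 4.64% mid. The lowest counts came without replicate 2 or its mid library alone. The cause was not tested. Mid calls made up 92.3% to 100% of subtelomeric calls in all these fits and 57.7% to 92.6% of inner calls, with 79.4% in the reported fit, 57.7% with total counts, 68.2% and 66.9% with the loess offsets. Over all regions that share was 61.9% in the reported fit, 39.0% with total counts, 45.8% and 46.7% with the loess offsets and 82.4% with no replicate block. Ends whose ratio differed numbered 11, or 19 with no replicate block, and 0 to 13 with a pair left out. Of 22 named regions, none changed direction in any fit, 13 lost their call with no replicate block, 12 lost it without replicate 2, and 9 had no adjusted p in DESeq2.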
